A study of Homo sapiens with 8 samples.

Results

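The replication-dependent histone genes were examined in Ishikawa cells, an established line from a human endometrial adenocarcinoma, by RNA sequencing of 8 libraries. Their members were the rows of the gene count table whose symbol begins with HIST1H, HIST2H, HIST3H or HIST4H, which gave 73 of 26364 rows. HIST2H2BA, HIST2H2BC and HIST1H2APS1 are annotated as pseudogenes and are counted as members under this rule. The cells carried no label of a transgene or deletion and were kept in hormone-depleted medium. There were 4 groups of 2 libraries: the solvent DMSO alone, 100 nM dexamethasone (Dex), 10 nM 17-beta-estradiol (E2), and both hormones together at those doses (Dex_E2, the combination). Dexamethasone is a synthetic agonist of the glucocorticoid receptor, and estradiol is the natural ligand of the estrogen receptor. The sample labels give 8 hr of treatment, and the treatment protocol in the same records gives 1 hr.

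Histones are the proteins around which DNA is wrapped: H2A, H2B, H3 and H4 form the core of the nucleosome, and H1 binds the DNA between nucleosomes. Replication-dependent histone genes lie in clusters, have no introns, and are transcribed mainly in S phase under the coactivator NPAT. Their mRNAs usually end in a conserved stem-loop that is bound by SLBP, in place of the poly(A) tail of other mRNAs. Some of these genes can also give polyadenylated transcripts that run past the stem-loop, in particular in differentiated cells or cells that have left the cycle. The libraries were made with a kit for mRNA, of the type that captures RNA through its poly(A) tail. How much of each histone mRNA the kit recovered was not tested. In RNA from a whole culture, fewer cells in S phase and less histone mRNA per cell cannot be told apart.

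The stem-loop is shown first because it is the feature that sets these mRNAs apart. It was found in the annotated transcripts of 32 of the 73 members (GENCODE release on GRCh38), in 5 spellings. In the lines below the 16 letters of stem and loop are in capitals, read 5′ to 3′, with a few flanking bases in lower case.
HIST2H2BE: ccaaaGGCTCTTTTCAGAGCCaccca
HIST1H2BD: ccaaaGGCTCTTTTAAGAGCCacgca
HIST1H4H: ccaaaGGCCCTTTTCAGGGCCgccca
HIST2H4B: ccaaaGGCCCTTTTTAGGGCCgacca
HIST1H2AG: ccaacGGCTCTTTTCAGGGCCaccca
The spelling of HIST2H2BE was the commonest, with 17 members of the H2A, H2B and H3 classes. That of HIST1H2BD occurred in 5 members of the H2B and H3 classes. Both spellings with GGCCC at the left of the loop, in 5 and 3 members, were found in H4 genes alone. The last spelling, in 2 members, has a stem in which 1 base pair is not a Watson-Crick pair. Many members are annotated as a coding sequence with almost nothing after it, HIST1H1C among them, so a stem-loop not found there says nothing about the mRNA.

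The annotated transcripts that run far past the stem-loop belong to several of the members with most reads. The longest run was 1729 bases in HIST2H2BE, 1655 in HIST1H4H, 1128 in HIST1H2AC, 1022 in HIST1H4E, 86 in HIST1H4B and 39 in HIST1H2BD. The 13 tested members with a run of at least 100 bases, a limit chosen after the values were seen, held 40.1% of all histone reads. They include the pseudogene HIST2H2BC, with an annotated run of 5804 bases and 62 reads in all.

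The members were unevenly covered. All 73 together had 31540 reads in the 8 libraries, between 0.0132% and 0.0228% of a library's 17846211 to 22487333 reads. HIST1H1C and HIST1H1E, which both encode linker histones H1, took 31.0% of the histone reads. The first 5 members took 58.8% and the first 10 took 78.7%. By class, H2B held 33.7%, H1 31.0%, H4 18.0%, H2A 14.2% and H3 3.10%. A library had reads for 31 to 40 members.

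Of the 73 members, 24 had 0 reads in every library, 17 had 1 to 10 reads in all, and 32 had more than 10. A count of 0 in one library allows a level of up to 0.132 to 0.169 CPM (counts scaled to each library's normalised size), which is 3 reads in that library and covers counting error only. Rows at 0 lay next to each other in the table. A run of 7 went from HIST1H3E to HIST1H3G, a run of 6 from HIST2H4B to HIST2H2AA4, and a run of 5 from HIST1H2AI to HIST1H4J. Near-identical copies fill the second of these: HIST2H2AA3 with HIST2H2AA4, HIST2H3A with HIST2H3C, and HIST2H4A with HIST2H4B. Reads from such copies match several places, so their 0 counts leave their expression uncertain. In the run of 7, by contrast, 6 members share no stretch of 50 bases with any other annotated transcript, and HIST1H3E has 98.3% of its stretches to itself. Over all members at 0, 14 of 24 had every stretch to themselves, the pseudogene HIST1H2APS1 among them, and 9 had under 50% of them. HIST1H1D, another somatic linker histone gene, was among the members at 0 with fully unique sequence.

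**Figure D1:**
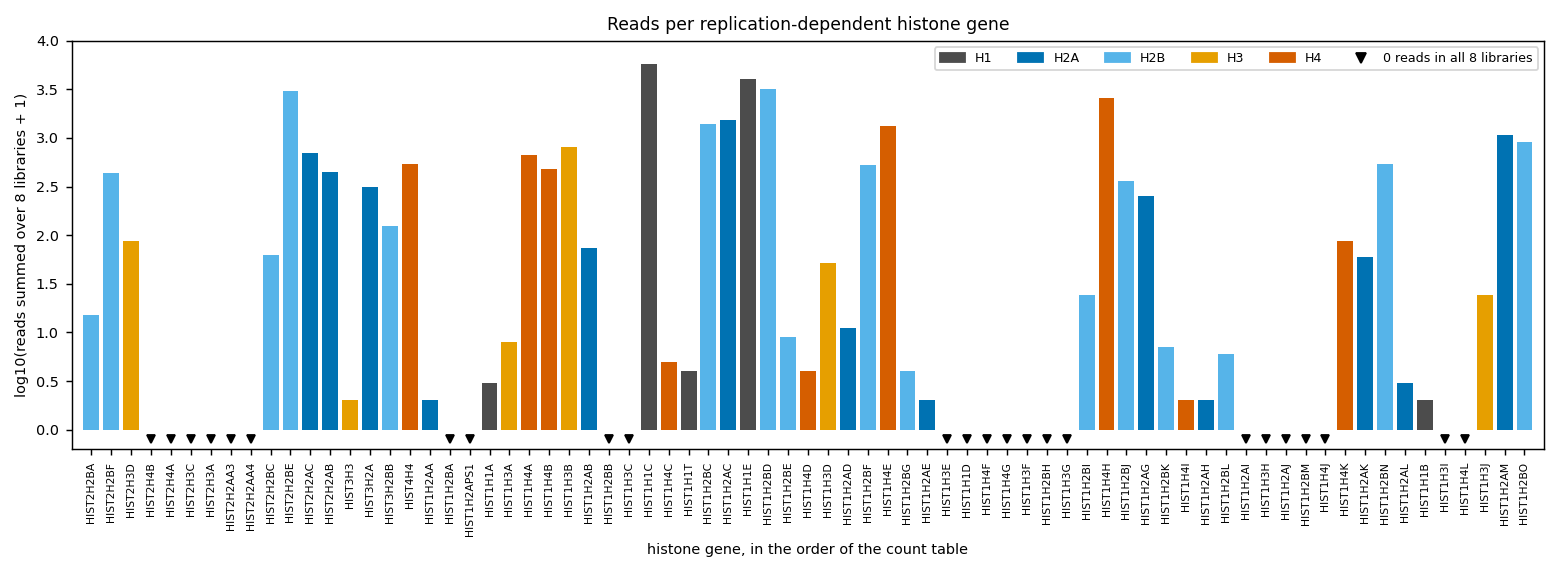
Reads summed over 8 libraries for each of the 73 histone genes, as log10(reads + 1), in the order of the count table and coloured by histone class. Black triangles mark the 24 genes with 0 reads in every library, which form runs of up to 7 neighbours.

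A filter on low counts left 28 members for testing, of 14201 genes: 2 of 6 H1 rows, 7 of 18 H2A rows, 10 of 20 H2B rows, 3 of 14 H3 rows and 6 of 15 H4 rows. Per kilobase of the longest annotated transcript, HIST1H1C had the highest level, 54.5 ± 5.83 CPM per kb (SD, 8 libraries), followed by HIST1H1E with 32.1 ± 8.06 and HIST1H2BD with 24.8 ± 4.54. HIST1H1C lay above the other pair by more than the SDs, while HIST1H1E and HIST1H2BD differed by less than the SD of HIST1H1E. The H2A gene HIST1H2AM at 16.5 ± 4.21 CPM per kb and the H2B gene HIST1H2BO at 14.5 ± 3.59 did not differ beyond their spread. HIST2H2BE at 8.34 ± 1.12 CPM per kb and HIST1H4H at 7.14 ± 2.00 differed by less than the SD of HIST1H4H and by slightly more than that of HIST2H2BE. These SDs span all 4 groups and leave out that the genes were read in the same libraries. In the mean of each group HIST1H1E was above HIST1H2BD, with 26.4 against 24.8 CPM per kb in Dex. HIST1H2AM was likewise above HIST1H2BO, and HIST2H2BE above HIST1H4H, with 8.15 against 7.93 in DMSO for the last pair. The order depends on the length used: per kilobase of coding sequence alone, HIST1H4H came to 50.0 and HIST2H2BE to 48.4, beside 54.7 for HIST1H1C and 36.9 for HIST1H1E. Of HIST1H2AM's stretches of 50 bases, 86.3% also occur in a transcript of HIST1H3J, so its reads are uncertain. HIST1H3D shares all of its stretches with AL031777.3, another locus annotated over the same sequence, so its reads are uncertain too.

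Promoters were matched in RefSeq (GRCh38.p14) for 60 members, and those of 3 well covered members from the H1, H2B and H4 classes are shown as the 250 bases before the start site. The capitals mark 4 sets of letters, searched on both strands, none of which holds another: ATTTGCAT is the octamer of H2B promoters. CCAAT is a box that many promoters carry. TATAAA is the core of the TATA box. AAACACA is a box known from H1 promoters. The sequences are printed 5′ to 3′ on the strand of the gene.
HIST1H1E, chr6:26156079-26156328, plus strand: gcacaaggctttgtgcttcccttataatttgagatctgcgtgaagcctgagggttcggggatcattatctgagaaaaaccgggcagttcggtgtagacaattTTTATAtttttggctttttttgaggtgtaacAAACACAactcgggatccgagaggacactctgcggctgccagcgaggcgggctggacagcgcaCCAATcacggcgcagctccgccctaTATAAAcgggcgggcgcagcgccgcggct
HIST2H2BE, chr1:149886683-149886932, minus strand: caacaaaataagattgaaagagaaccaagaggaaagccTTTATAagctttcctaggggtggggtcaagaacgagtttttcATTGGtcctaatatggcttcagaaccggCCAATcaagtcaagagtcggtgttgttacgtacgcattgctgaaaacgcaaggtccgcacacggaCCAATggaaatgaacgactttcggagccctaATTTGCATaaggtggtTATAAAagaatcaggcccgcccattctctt
HIST1H4H, chr6:26285535-26285784, minus strand: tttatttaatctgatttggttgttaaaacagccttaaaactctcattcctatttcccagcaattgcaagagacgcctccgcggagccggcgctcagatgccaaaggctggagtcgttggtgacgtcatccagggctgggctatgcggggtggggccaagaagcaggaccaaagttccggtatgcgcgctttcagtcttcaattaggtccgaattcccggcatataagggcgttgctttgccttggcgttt
AAACACA begins 117 bases before the start of HIST1H1E, with CCAAT at 54 and TATAAA at 29. ATTTGCAT begins 46 bases before the start of HIST2H2BE, between CCAAT at 77 and TATAAA at 30. None of the 4 sets of letters is in the HIST1H4H window. Over the windows of 250 bases before to 50 after each start, ATTTGCAT was present in 35% of the 60 histone genes and in 2.19% of 27305 genes in all. CCAAT was in 83.3% of the histone genes against 39.7% of all, TATAAA in 68.3% against 14.0%, and AAACACA in 15% against 6.94%. The classes held different letters: ATTTGCAT was in 11 of 16 H2A and 9 of 13 H2B promoters and in 0 of 6 H1 and 0 of 13 H4 promoters, and AAACACA was in 6 of 6 H1 promoters. CCAAT was in every H1, H2A, H2B and H3 promoter matched and in 3 of 13 H4 promoters. Members at 0 reads held these letters too: CCAAT was in 81.8% of 22 and TATAAA in 72.7%, beside 79.2% and 70.8% of the 24 tested members with a window. ATTTGCAT was in 22.7% of the members at 0 and in 45.8% of the tested members. These sets differ in class: H2A and H2B rows made up 7 and 10 of the 28 tested members, and 5 and 4 of the 24 members at 0. The 2 shares therefore do not show whether ATTTGCAT goes with detected reads within a class.

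Before the comparisons, the treatments and the labelled cell type were checked. TSC22D3 and FKBP5, targets of the glucocorticoid receptor, rose with dexamethasone by 3.23 ± 0.14 and 1.67 ± 0.11 on the log2 scale (± SE, edgeR adjusted p = 7.20e-07 and 1.67e-05). PGR and GREB1, targets of the estrogen receptor, rose with estradiol by 3.46 ± 0.40 and 1.98 ± 0.31 (edgeR adjusted p = 0.00165 and 0.00873; that of GREB1 was lost without either E2 library, at up to 0.123). The library labelled Dex 1, which by its label received no estradiol, stood above the others without estradiol at both genes. PGR was at 4.09 and 2.53 CPM in DMSO, 8.91 in Dex 1, 2.47 in Dex 2 and 31.8 or more in the libraries with estradiol. GREB1 was at 8.03 and 6.71 CPM in DMSO, 17.7 in Dex 1, 6.85 in Dex 2 and 28.1 or more with estradiol. Without Dex 2, PGR and GREB1 were called higher in Dex than in DMSO (edgeR adjusted p = 0.0303 and 0.0050). What part this has in the histone values of Dex 1 was not tested. The 7 epithelial markers, EPCAM and keratins among them, summed to 3388 to 4899 CPM per library. The 6 leukocyte markers summed to 1.17 to 3.0 CPM with CD3E at 0 throughout, the 4 endothelial markers to 1.85 to 4.38 CPM, and the 6 fibroblast markers to 137 to 200.2 CPM. Most of the fibroblast sum was COL1A1, at 123 to 185 CPM, with COL3A1 at 10.9 to 15.0 and COL1A2 at 1.15 to 1.82. PDGFRB, DCN and LUM reached at most 0.113 CPM in any library. KDR, an endothelial receptor for VEGF, was at 0.262 and 0.0972 CPM in DMSO, 1.30 and 1.46 in Dex, 0.169 and 0.177 in E2 and 1.11 and 1.08 in the combination. It rose with dexamethasone (log2 fold change 2.92 ± 0.45, edgeR adjusted p = 0.0102) and with both hormones (2.59 ± 0.46, edgeR adjusted p = 0.0119). Without DMSO 2 the edgeR adjusted p of KDR was 0.0883 and 0.129, and 11 and 8 of 13 alternatives kept the calls. KDR was chosen for mention after its values were seen; VWF was not called, and PECAM1 and CDH5 were under the filter on low counts. What part this has in the histone values was not tested. The labels do not tell whether a group's 2 libraries are separate cultures, so a p-value here weighs a change against a spread that may be technical only. In the column headers both combination libraries carry the number 1, so one of them is called the library without a number below.

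No histone gene passed the test in any comparison, and in DMSO and in Dex the summed level differed more between the 2 libraries than any group means did. Summed over all members, the level was 166 and 233 CPM in the DMSO libraries, 215 and 134 in Dex, 177 and 199.9 in E2, and 218 and 187 in the combination. The group means were 199 ± 47.2, 175 ± 57.7, 189 ± 15.97 and 202 ± 21.9 CPM (SD, n = 2 each). The lowest and the highest library of the series, Dex 2 and DMSO 2, thus came from different groups, and the ranges of all groups overlapped, with both E2 libraries inside those of DMSO and of Dex. The 5 classes moved together from library to library: H1 ran from 41.9 CPM in Dex 2 to 70.9 in DMSO 2, H2B from 47.8 to 78.3, H2A from 21.4 to 33.1 and H4 from 19.9 to 43.2 between the same libraries. H3 was also lowest in Dex 2, at 2.86 CPM, and was highest in the combination library 1, at 7.37.

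**Figure D2:**
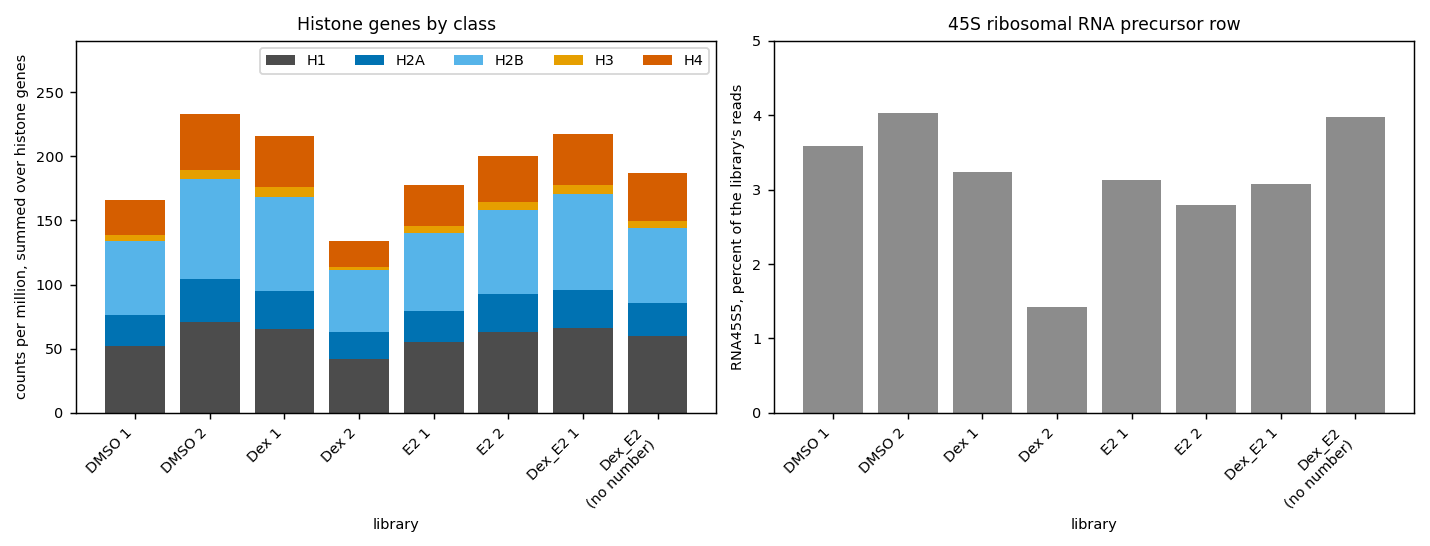
Left, CPM summed over histone genes in each of 8 libraries, stacked by histone class. Right, the share of each library's reads in the RNA45S5 row in percent; Dex 2 is lowest in both panels, at 134 CPM and 1.42%.

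The libraries that stood apart were Dex 2 and DMSO 2. Of the 28 tested members 20 were lowest in Dex 2, where 21.5% of all tested genes had their lowest value. Of the 28, 14 were highest in DMSO 2, where 9.90% of all genes had their highest. The median ratio of library 2 over library 1, on the log2 scale, was -0.87 in Dex, with 26 of 28 members lower in Dex 2, and 0.51 in DMSO, with 26 of 28 higher in DMSO 2. It was 0.20 in E2 (22 higher in E2 2) and -0.17 in the combination (23 lower in the library without a number), against -0.00 to 0.01 for all tested genes. Members differed in this gap. Dex 2 was at 0.376 of Dex 1 for HIST1H1E and at 0.427 for HIST1H4H, and at 0.858 for HIST1H1C, 0.950 for HIST1H2AG and 1.02 for HIST1H2AC. Among members with an annotated run of at least 100 bases past the stem-loop the median of Dex 2 over Dex 1 was 0.583, from 0.389 to 1.02. Among the other 15 tested members it was 0.466, from 0.194 to 2.13, so the 2 sets overlapped. Of these 15 only HIST1H4B and HIST1H2BD have a stem-loop in their annotated transcripts. The split therefore does not separate long from short mRNAs.

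**Figure D3:**
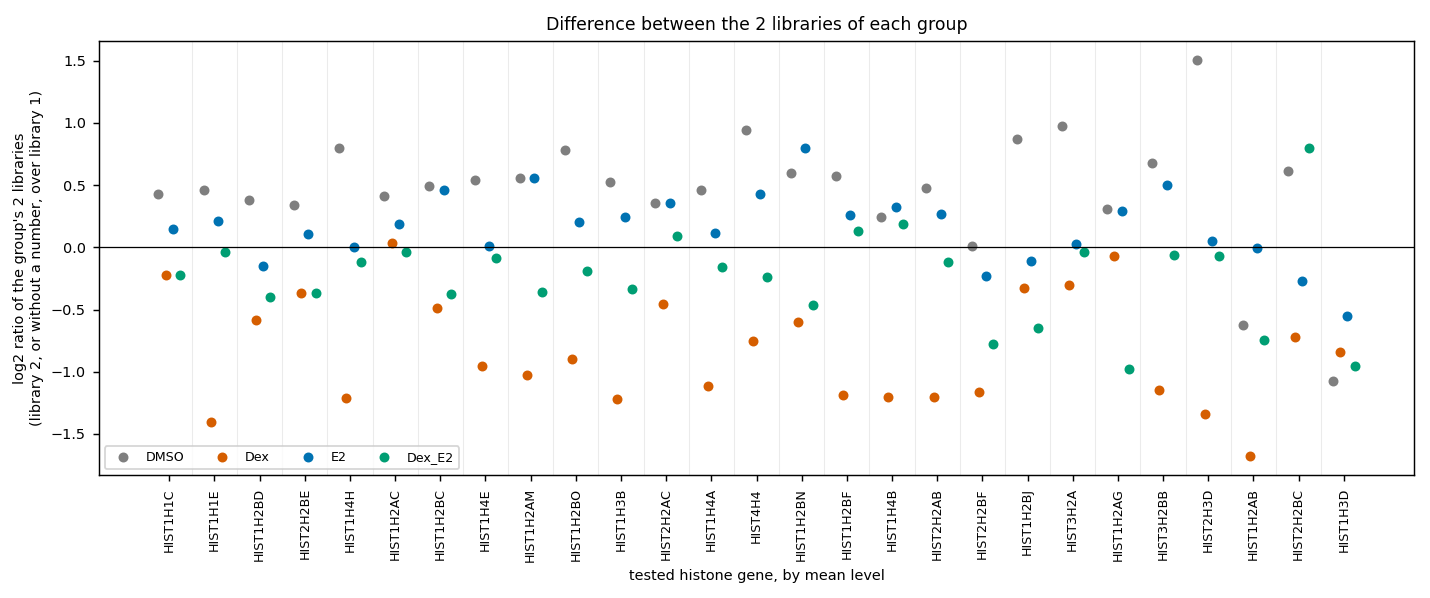
Log2 ratio of the 2 libraries of each group for 27 tested histone genes, ordered by mean level (HIST1H4K, at 0 in several libraries, is left out). In Dex, HIST1H2AC alone of these lies above 0, and in DMSO, HIST1H2AB and HIST1H3D alone lie below 0.

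Other RNAs also differed between the libraries of a group. RNA45S5, the precursor of ribosomal RNA, which has no poly(A) tail, took 1.42% of reads in Dex 2 and 3.23% in Dex 1, 3.58% and 4.03% in DMSO, 3.13% and 2.79% in E2, and 3.08% and 3.97% in the combination. Of 9 tested RNAs that lack a poly(A) tail, such as RMRP, RPPH1 and TERC, 9 were lower in Dex 2 than in Dex 1, with a median log2 ratio of -0.93, and 4 of 9 were lower in DMSO 2 than in DMSO 1 (median 0.22). In E2, 3 of 9 were lower in E2 2 (median 0.49). In the combination 1 of 9 was lower in the library without a number (median 0.03), while 23 of 28 histone genes were lower there. Genes of DNA replication and S phase did not show the gap: 25 of 48 were lower in Dex 2 than in Dex 1, with a median of -0.02, and 23 of 48 were lower in DMSO 2, with a median of 0.01. The histone variants that are made throughout the cycle from polyadenylated mRNA had a median of 0.03 in Dex and 0.09 in DMSO (10 genes). The part of RNAs without a tail in the histone values was not tested.

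Dexamethasone was compared with DMSO first. The best covered member, HIST1H1C, was at 30.1 and 40.5 CPM in DMSO and at 36.2 and 31.0 in Dex. The Dex values lay between those of DMSO, and the log2 fold change was -0.07 with a 95% interval from -0.40 to 0.26. HIST1H1E was at 21.9 and 30.3 CPM in DMSO and at 28.99 and 10.9 in Dex. Only Dex 2 was low, and the log2 fold change of -0.38 had an interval from -1.10 to 0.34. HIST1H4H, an H4 gene, was at 12.5 and 21.8 CPM in DMSO and at 16.8 and 7.18 in Dex. Dex 1 lay within the DMSO range and Dex 2 under it, and the log2 fold change was -0.51 (-1.23 to 0.21, edgeR adjusted p = 0.668).

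Of 28 members 0 passed at an edgeR adjusted p under 0.05, where 0.965% of all genes tested did, and DESeq2 also called 0. At an unadjusted p under 0.05 there was 1 member, HIST1H4K, against 9.84% of all genes. The median log2 fold change of the members was -0.26, with 23 of 28 below 0, against 0.00 for all genes. This median rested on single libraries: it was 0.12 without Dex 2, 0.092 without DMSO 2 and -0.66 without Dex 1. Without Dex 1 the linker histone gene HIST1H1E was called lower (log2 fold change -1.26, edgeR adjusted p = 0.0262); this was the only one of 13 alternatives to call it. Both libraries of one group lay outside those of the other for 2 members, HIST1H4K and HIST1H2AG, against 36.2% of all genes.

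Estradiol was compared with DMSO in the same way. HIST1H2BD, an H2B gene, was at 19.6 and 25.6 CPM in DMSO and at 19.4 and 17.4 in E2. Both E2 values lay under both DMSO values, one of them narrowly, and the log2 fold change was -0.30 (-0.75 to 0.15). HIST1H2AC, an H2A gene with a transcript annotated far past the stem-loop, was at 8.97 and 12.01 CPM in DMSO and at 7.94 and 9.05 in E2. The groups overlapped, and the log2 fold change of -0.30 (-0.66 to 0.06, edgeR adjusted p = 0.562) had the smallest p after HIST1H4K. HIST2H2BE was at 15.8 and 19.98 CPM in DMSO and at 18.2 and 19.7 in E2, inside the DMSO range.

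No member passed by edgeR or by DESeq2, against 1.80% of all genes by edgeR. HIST1H4K alone had an unadjusted p under 0.05, against 11.4% of all genes. The members' median log2 fold change was -0.047, with 18 of 28 below 0, against -0.00 for all genes. It was 0.22 without DMSO 2 and 0.026 without E2 1. Groups did not overlap for 4 members, against 36.2% of all genes: HIST1H2AB and HIST1H3D were higher in E2, and HIST2H2BF and HIST1H2BD lower. HIST1H3D had 6 and 2 reads in DMSO and 10 and 8 in E2, too few to place its log2 fold change of 1.12 (-0.40 to 2.65).

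With both hormones, HIST1H4A, another H4 gene, was at 2.94 and 4.08 CPM in DMSO and at 5.41 and 4.85 in the combination. Both combination libraries were above both DMSO libraries, and the log2 fold change was 0.54 (-0.13 to 1.21, edgeR adjusted p = 0.622). HIST1H4A was at 5.10 and 2.30 CPM in Dex, so Dex 1 lay within the range of the combination. HIST1H2AC was at 8.87 and 8.66 CPM in the combination, below both DMSO libraries, with a log2 fold change of -0.26 (-0.62 to 0.10). HIST1H1C at 39.2 and 33.6 CPM and HIST1H1E at 26.7 and 26.0 CPM lay inside the range of their DMSO libraries.

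Against DMSO 0 members passed by either tool, where edgeR called 2.19% of all genes, and 0 had an unadjusted p under 0.05, where 10.8% of all genes did. The median was 0.039, with 17 of 28 above 0, and it was -0.18 without DMSO 1 and -0.042 without the combination library 1. Groups did not overlap for 2 members, HIST1H4A and HIST1H2AC, against 39.1% of all genes. The 3 comparisons with DMSO share the DMSO libraries.

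**Figure D4:**
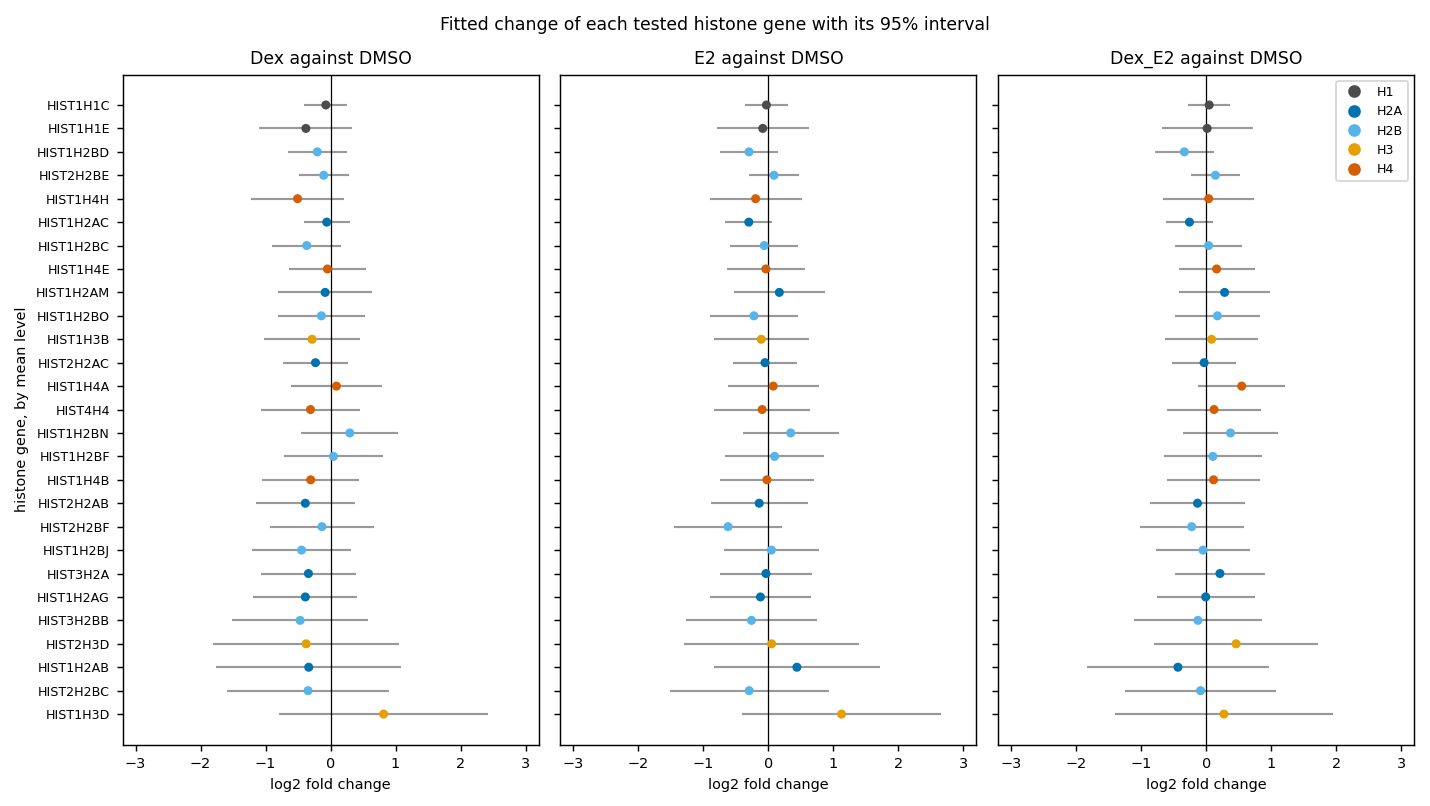
Fitted log2 fold change against DMSO, with its 95% interval, of 27 tested histone genes coloured by class and ordered by mean level (HIST1H4K is left out because its groups reach 0). Every interval drawn includes 0; the narrowest belong to well covered genes such as HIST1H1C, and the widest to HIST1H3D.

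Adding dexamethasone to estradiol, which compares the combination with E2, gave 0 members called by either tool, against 0.275% of all genes by edgeR. HIST1H4K alone had an unadjusted p under 0.05, against 6.37% of all genes. The members' median was 0.11, with 23 of 28 above 0, and -0.0057 without E2 1. Groups did not overlap for 7 members, against 37.7% of all genes. HIST2H3D, HIST3H2A, HIST1H4A, HIST1H4E, HIST1H4H and HIST1H2BO were higher in the combination and HIST1H2AB was lower. HIST2H3D has only 19.6% of its stretches of 50 bases to itself and shares 57.7% with HIST2H3DP1, so its reads are uncertain. HIST1H4H shows the size of these gaps: it was at 15.0 CPM in both E2 libraries and at 18.4 and 16.9 in the combination, and its log2 fold change was 0.23 (-0.47 to 0.94).

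Adding estradiol to dexamethasone, which compares the combination with Dex, also gave 0 members called by either tool, against 2.67% of all genes by edgeR. HIST1H4K alone had an unadjusted p under 0.05, against 16.7% of all genes. The median log2 fold change of 0.28, with 22 of 28 members above 0, was 0.80 without Dex 1 and -0.090 without Dex 2. Without Dex 1, HIST1H1E (1.27, edgeR adjusted p = 0.0119) and HIST1H4H (1.29, edgeR adjusted p = 0.0474) were called higher, in each case under that alternative alone of 13. With all libraries their values were 0.39 (-0.32 to 1.10) and 0.54 (-0.17 to 1.26). Groups did not overlap for 5 members, against 49.8% of all genes: HIST2H3D, HIST3H2A and HIST1H4H were higher, and HIST1H2AC and HIST1H4K lower.

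The departure from additivity asks whether the combination differed from the sum of both single effects. It gave 0 members called by either tool, against 0.0211% of all genes by edgeR. HIST1H4K alone had an unadjusted p under 0.05, against 5.16% of all genes. The median was 0.39, with 23 of 28 members above 0, against -0.01 for all genes. Without Dex 2 it was 0.017, without DMSO 2 it was -0.028, and without Dex 1 it was 0.82.

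HIST1H4K was the member with the smallest p in 5 of the 6 comparisons, and its counts are few. It had 0 and 1 reads in DMSO, 17 and 31 in Dex, 0 and 37 in E2, and 0 and 0 in the combination. Both Dex libraries and E2 2 were high, and the E2 group held both a library with 0 reads and the one with most reads. HIST1H4K passed the filter on low counts only through Dex 1, Dex 2 and E2 2. Its p-values thus belong to a gene admitted by the libraries in which it was high, and give no separate support for a change. Its mean in Dex was at least 9.50-fold higher than the level that 3 reads in each combination library would give. By edgeR the unadjusted and adjusted p were 0.00886 and 0.274 for Dex against DMSO, 0.0201 and 0.286 for E2 against DMSO, and 0.00999 and 0.524 for the combination against E2. They were 0.00455 and 0.1004 for the combination against Dex, and 0.00112 and 0.444 for the departure from additivity. Some alternatives gave adjusted p values under 0.05: with no filter on low counts they ran from 0.00107 to 0.0251 in these 5 comparisons. For the combination against Dex it was 0.0109 with only the libraries of those groups, 0.0250 without E2 1 and 0.0267 without E2 2. All stretches of 50 bases in HIST1H4K also occur in HIST1H4J, which had 0 reads in all libraries, so reads of these genes cannot be told apart.

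**Figure D5:**
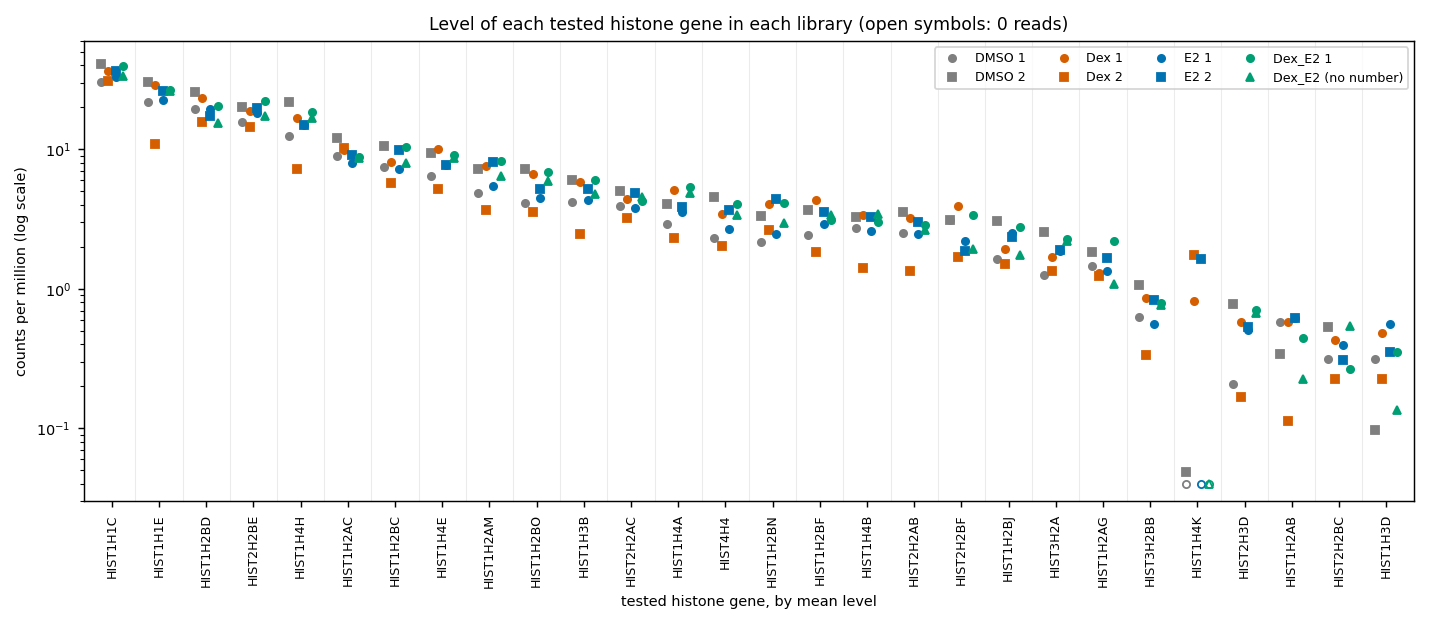
CPM on a log axis of the 28 tested histone genes in each of 8 libraries, ordered by mean level, with groups by colour and libraries by symbol. Dex 2 (orange squares) is the lowest library for 20 genes, and HIST1H4K has libraries at 0 reads, drawn as open symbols at the bottom.

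The other genes of the histone pathway were read from the same fits. Of 26 tested genes for histone transcription and 3′ processing, edgeR and DESeq2 each called 0 in every one of the 6 comparisons. Over all genes edgeR called between 0.0211% and 2.67%, so 0 of 26 is near that share. At an edgeR unadjusted p under 0.05 the most were 3, with dexamethasone, where 9.84% of all genes passed that limit. CCNE1 and POU2F1, given below, are among them. SLBP, which binds the stem-loop, was at 73.5 ± 2.72 CPM in DMSO, 83.5 ± 1.77 in Dex, 76.6 ± 3.70 in E2 and 82.8 ± 3.27 in the combination (SD, n = 2). Its log2 fold change with dexamethasone was 0.18 ± 0.09 (SE, edgeR adjusted p = 0.564). NPAT was at 46.7 ± 5.13 CPM in DMSO and 42.4 ± 4.65 in Dex, and ZNF473, a zinc finger protein of the histone 3′ end machinery, at 28.1 ± 0.05 and 29.1 ± 1.68. Cyclin E activates NPAT through CDK2, and CCNE2 was at 50.3 ± 4.82 CPM in DMSO and between 51.5 and 55.2 on average in the other groups. CCNE1, the other cyclin E gene, was at 28.9 and 26.7 CPM in DMSO and at 34.1 and 33.0 in Dex (log2 fold change 0.27 ± 0.10, edgeR unadjusted p = 0.0180, adjusted p = 0.360). POU2F1, which encodes the factor OCT1 that binds the octamer, was at 86.7 and 85.1 CPM in DMSO and at 68.9 and 60.8 in Dex (-0.40 ± 0.13, edgeR unadjusted p = 0.0116, adjusted p = 0.301).

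Of 10 tested variants made outside S phase, edgeR called 0 in each comparison, where it called 0.0211% to 2.67% of all genes. At most 1 had an edgeR unadjusted p under 0.05, where 5.16% to 16.7% of all genes did. DESeq2 called 1 in the combination against Dex. H3F3B, which encodes H3.3, was at 1035 ± 19.9 CPM in DMSO and H2AFZ, which encodes H2A.Z, at 705 ± 89.99. Their log2 fold changes against DMSO lay between -0.04 and 0.04 in the 3 comparisons. H1F0, the linker histone of resting cells, was at 197 ± 6.53 CPM in DMSO, 216 ± 2.08 in Dex, 163 ± 5.28 in E2 and 171 ± 3.52 in the combination. Both E2 libraries were below both DMSO libraries, and the log2 fold change of -0.28 ± 0.09 did not pass (edgeR adjusted p = 0.178). H1F0 was also the variant that DESeq2 called in the combination against Dex (log2 fold change -0.33, DESeq2 adjusted p = 0.0405). DESeq2 was the only one of 13 alternatives to call it there. Of 23 histone chaperones 1 rose with estradiol: NAP1L4, which carries H2A and H2B, by 0.54 ± 0.11 (edgeR adjusted p = 0.0390), and with both hormones by 0.59 ± 0.11 (edgeR adjusted p = 0.0193). Over all genes edgeR called 1.80% with estradiol and 2.19% with both hormones. The count of 1 in 23 is therefore not read as a result about chaperones. The call with estradiol was lost without DMSO 2 or any E2 or combination library (adjusted p up to 0.304), and that with both hormones without DMSO 2 or either combination library (up to 0.187).

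No gene of the lists for phases of the cycle passed the test. Of 48 tested genes of DNA replication and S phase and 28 of G2 and mitosis, edgeR and DESeq2 called 0 in each of the 6 comparisons. Over all genes edgeR called between 0.0211% and 2.67%, so 0 calls in these lists are near that share. The smallest edgeR adjusted p in the first list was 0.0581, in the combination against DMSO. At an unadjusted p under 0.05 the most were 7 of the first list and 2 of the second, both in the combination against Dex, where 16.7% of all genes passed that limit. PCNA, the sliding clamp of DNA polymerase, was at 187 ± 13.8 CPM in DMSO, 191 ± 16.1 in Dex, 186 ± 9.42 in E2 and 182 ± 4.34 in the combination. MKI67, a marker of cycling cells, was at 884 and 545 CPM in DMSO, 694 and 526 in Dex, 627 and 635 in E2, and 499.8 and 682 in the combination. The spread of MKI67 in DMSO was wider than any difference between group means. MKI67 was lower in DMSO 2 and higher in the combination library without a number, where histone genes moved the other way. It was also lower in Dex 2, where histone genes were lower too.

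Of these lists, cell cycle inhibitors had most calls, 3 of 15 with dexamethasone, where 0.965% of all genes were called. The list was chosen with earlier results of these data known. Its count of calls therefore does not show that inhibitors respond as a class. CDKN1C, the inhibitor p57, was at 14.4 and 21.7 CPM in DMSO and at 52.8 and 63.4 in Dex, and rose by 1.68 ± 0.18 on the log2 scale (edgeR adjusted p = 8.15e-04). BTG2 rose by 0.81 ± 0.10 and CDKN1A, the inhibitor p21, by 0.53 ± 0.10 (edgeR adjusted p = 0.00156 and 0.0283). CDKN1C was lower in the combination than in Dex, with a log2 fold change of -1.49 ± 0.17 (edgeR adjusted p = 0.00273). With estradiol BTG2 and CCNG2, a cyclin of arrested cells, fell, with log2 fold changes of -0.50 ± 0.10 and -0.72 ± 0.12 (edgeR adjusted p = 0.0298 and 0.00926). In the combination against DMSO, CDKN1A rose by 0.86 ± 0.10 (edgeR adjusted p = 8.27e-04), a call kept in 13 of 13 alternatives, and against E2 by 0.78 ± 0.10 (edgeR adjusted p = 0.00476), kept in 10 of 13. The call of CDKN1A with dexamethasone was lost without any single library except DMSO 2 (adjusted p up to 0.202). That of BTG2 with estradiol was lost without any DMSO, E2 or combination library (up to 0.221), and that of CCNG2 without E2 2 (0.134). The direction held in each of these fits. No histone gene was called in the comparisons in which these inhibitors were.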

How the data were processed

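Total RNA of Ishikawa cells was made into libraries with a stranded mRNA kit, per the labels' protocols. Reads were aligned to hg19 with HISAT2 2.0.4 and counted with featureCounts 1.5.1 of Subread, per the submitters' processing notes; of the counting, the annotation, strand setting and rule for reads that match several places were not given in those sources. The authors deposited whole-number counts per gene, which were the values analysed. The authors also deposited a table of normalized values, a signal that equals the counts divided by a factor per library (0.876 to 1.11, relative deviation at most 5.11e-15), with DESeq2 1.14.1 named in the processing notes. It was used for that check alone.

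Genes were filtered with filterByExpr by group, scaled by TMM and tested with edgeR 4.0.16 (quasi-likelihood F test, limma 3.58.1, R 4.3.3) in one fit of 4 groups with 4 residual degrees of freedom. P-values were adjusted by Benjamini and Hochberg over all 14201 genes tested, at 0.05, in 6 comparisons. CPM are counts scaled to the filtered library size times the TMM factor; intervals are 95%. Library ratios used a pseudocount of 0.1 CPM on the log2 scale. Alternatives were DESeq2 1.42.0, its size factors, no filter, fits of 2 groups, a block on the library number, and leaving out each library. In simulated data for dexamethasone against DMSO (13919 genes), 44% of genes changed 1.5-fold, 86% of those changed 2-fold and 100% of those changed 4-fold were called, and 15 of 180 calls were false. The changed genes had a DMSO mean over 2 CPM, and each gene was drawn independently. These shares therefore do not hold for members at lower levels or for members that shift together between libraries.

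Genes named were the members called, the 12 of highest mean CPM, the 3 of smallest p per comparison, up to 6 with transcripts past the stem-loop, up to 4 genes of each other list, and fixed examples. Other members, and CCNE1, POU2F1 and KDR, are named after their values were seen. The members and lists were chosen with earlier results of these data known. Transcript lengths, stem-loops (CTTTTNAG with 4 paired bases on each side, at most 1 mismatch) and stretches of 50 bases came from GENCODE transcripts on GRCh38 in place of RefSeq ones, and promoters from RefSeq on GRCh38.p14. Those builds are not that of the counts, so no other coordinates are given. The promoter letters AAACACA were added after seeing the data.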

Additional observations from a re-analysis of the deposited data

How the results depend on the processing

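With 2 libraries a group, single libraries set the direction of the histone medians. Over the fits that leave out 1 library the median ran from -0.66 to 0.12 for Dex against DMSO, -0.30 to 0.22 for E2 against DMSO, -0.18 to 0.32 for the combination against DMSO, -0.0057 to 0.24 against E2, -0.090 to 0.80 against Dex and -0.028 to 0.82 for the departure from additivity. The count of histone genes called ran from 0 to 1 for Dex against DMSO and from 0 to 2 for the combination against Dex, and stayed at 0 in the other 4. With no filter on low counts it was 1 in each comparison except the combination against DMSO, and it was 1 for the combination against Dex with only the libraries of those groups. The call without Dex 1 for Dex against DMSO was HIST1H1E, and the pair without Dex 1 for the combination against Dex was HIST1H1E and HIST1H4H; the other calls were HIST1H4K. Few reads limit members such as HIST1H3D, with 51 in all.

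Counts over all genes moved more. With no filter they were 253 for Dex and 442 for E2 against DMSO, and 132 against E2, 658 against Dex and 32 for the departure from additivity, in place of 137, 256, 39, 379 and 3. DESeq2 gave 62 for the combination against E2 and 13 for the departure. Fits of the libraries of 2 groups gave 63 for Dex against DMSO and 151 for the combination against E2. Leaving out 1 library gave 78 to 127 for Dex, 58 to 298 for E2 and 157 to 325 for the combination against DMSO, 10 to 68 against E2, 89 to 488 against Dex and 1 to 10 for the departure.

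The labels do not say what a shared library number marks, and deviations of same-numbered libraries correlated by 0.31, 0.22 and 0.06. With the replicate block (7 numbered libraries, 2 residual degrees of freedom) the counts over all genes were 241 for Dex and 442 for E2 against DMSO, 176 for the combination against Dex and 5 for the departure; 1 histone gene, HIST1H4K, was called for Dex against DMSO. Per kilobase of coding sequence in place of the whole transcript, HIST1H2BD had 51.8, HIST2H2BE 48.4 and HIST1H4H 50.0 CPM in place of 24.8, 8.34 and 7.14. These shifts per kilobase follow from the shorter length that the counts are divided by. The cause of the other shifts under the alternatives was not tested. Of 1364 values of named histone genes that passed neither under an alternative nor in the reported fit, 112 had the other sign.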

Other observations

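A few sparse histone genes had most of their reads in 1 library. HIST1H2BI had 17 reads in Dex 1 and 0 to 2 in each other library, and HIST1H2BE had 6 reads in DMSO 1 and 0 or 1 elsewhere. Neither was tested, since both fell under the filter on low counts.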
